A study of Mus musculus with 18 samples.

Results

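The mitosis and spindle genes described here are 40 genes whose products carry a cell through the G2 to M transition, build the spindle, hold chromosomes to it and divide the cell. Members were the rows of the raw count table whose gene symbol equalled a name on a fixed list, and all 40 names were found among the 30530 genes of the table. All 40 also passed the filter on low counts, among 12741 genes tested. The genes fell into 9 roles: 2 transcription factors of the G2/M programme, 4 cyclins and their kinase, 4 spindle checkpoint genes, 3 genes of the anaphase-promoting complex and securin, 3 of the chromosomal passenger complex, 5 of the centromere and kinetochore, 7 spindle kinases, assembly factors and motors, 6 of the midzone and cytokinesis, and 6 of chromosome structure together with Mki67.

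The cells were macrophages cultured from mouse bone marrow, and their polyadenylated RNA was sequenced. Those from C57BL/6 mice (B6) were left untreated or were given 25-hydroxycholesterol (25HC), the product of the enzyme that Ch25h encodes, at 5 µM for 18 hours. Both kinds were studied at rest (no stimulus) and with Pam3CSK4 (PAM3), a synthetic lipopeptide ligand of Toll-like receptors 1 and 2, at 300 ng/mL. Cells of Ch25h-/- mice, which lack that enzyme, received no 25HC and were studied at rest and with PAM3. Each of these 6 groups held 3 libraries, labelled by mouse number 1 to 3 and called replicates 1, 2 and 3 below, and every triple of values is given in that order. The labels give PAM3 libraries a stimulation time of 18, without a unit, and resting libraries 0, and do not say how long resting cells were kept in culture. PAM3 and time in culture therefore cannot be told apart.

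Library totals ran from 14.04 to 150.4 M counts (M, mega). Ch25h, the gene removed in the knockout, had 76 to 1031 counts in the 12 B6 libraries and 0 to 2 in the 6 Ch25h-/- libraries. All 10 macrophage markers checked were detected, led by Lyz2 at 11040 to 38515 CPM (a gene's counts per M counts of its library's scaled total). The 7 lymphoid markers stayed below 1 CPM in every library, Cd3e at 0 counts, as did 7 of 8 progenitor markers and 7 of 8 mast and dendritic cell markers, with Mcpt4 at 0 counts. Fibroblast markers reached at most 6.79 CPM and neutrophil markers 45.9 CPM, and of 5 erythroid and megakaryocyte markers Pf4 was at 73.1 to 469 CPM and Alas2 at 0 counts.

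Dividing cells make most of these transcripts only in G2 and M phase. In quiescent cells the DREAM complex holds their promoters silent, and in cycling cells B-MYB (Mybl2) and FOXM1 (Foxm1) bind the same promoters and switch them on, through a cell cycle homology region (CHR, core TTTGAA) and CCAAT boxes read by NF-Y. Macrophages grown from marrow divide in response to their growth factor and leave the cycle as they are activated. In bulk RNA, fewer dividing cells and less transcript per dividing cell cannot be told apart.

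The promoter bases of 5 members are shown. Windows of 300 bases, 250 before and 50 after the start, came from RefSeq (GRCm38.p6) and matched 33 of the 40 genes with 35 windows. Incenp, Foxm1, Ccna2, Smc4, Tpx2, Aurkb and Kif20a had no window. The 250 upstream bases below were chosen among windows free of any annotated gene, from the 2 most abundant members (Mki67 and Top2a), the member that fell most with PAM3 in untreated B6 (Cenpf), a mitotic cyclin (Ccnb2) and a member with neither motif (Nuf2). Each is written 5′ to 3′ on its gene's strand, and capitals mark TTTGAA or CCAAT on either strand (TTCAAA and ATTGG are the reverse complements).
Mki67, chr7:135716380-135716629, minus strand: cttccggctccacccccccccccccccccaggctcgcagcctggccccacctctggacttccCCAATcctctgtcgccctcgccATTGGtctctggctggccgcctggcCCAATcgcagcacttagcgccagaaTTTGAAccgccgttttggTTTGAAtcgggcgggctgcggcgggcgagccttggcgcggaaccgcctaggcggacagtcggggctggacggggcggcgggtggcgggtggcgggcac
Top2a, chr11:99024190-99024439, minus strand: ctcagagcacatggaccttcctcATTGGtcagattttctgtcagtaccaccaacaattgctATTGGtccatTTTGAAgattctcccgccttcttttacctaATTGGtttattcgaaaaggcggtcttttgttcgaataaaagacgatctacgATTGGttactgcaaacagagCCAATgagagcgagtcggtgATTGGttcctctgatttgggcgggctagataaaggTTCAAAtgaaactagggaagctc
Ccnb2, chr9:70421555-70421804, minus strand: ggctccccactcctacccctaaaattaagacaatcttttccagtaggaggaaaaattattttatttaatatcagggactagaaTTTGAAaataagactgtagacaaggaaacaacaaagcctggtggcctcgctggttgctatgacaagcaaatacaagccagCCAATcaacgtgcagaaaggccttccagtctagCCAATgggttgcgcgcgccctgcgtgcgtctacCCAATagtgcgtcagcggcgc
Cenpf, chr1:189688087-189688336, minus strand: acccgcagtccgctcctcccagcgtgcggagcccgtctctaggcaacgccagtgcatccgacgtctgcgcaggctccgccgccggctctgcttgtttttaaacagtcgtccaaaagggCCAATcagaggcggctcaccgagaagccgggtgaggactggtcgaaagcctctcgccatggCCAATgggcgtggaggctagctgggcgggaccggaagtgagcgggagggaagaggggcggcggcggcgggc
Nuf2, chr1:169531465-169531714, minus strand: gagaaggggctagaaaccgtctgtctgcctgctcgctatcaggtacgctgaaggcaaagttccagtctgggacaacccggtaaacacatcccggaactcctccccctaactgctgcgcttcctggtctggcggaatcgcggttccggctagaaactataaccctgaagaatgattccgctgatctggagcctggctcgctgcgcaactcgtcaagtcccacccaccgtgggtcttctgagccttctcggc

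The Top2a stretch holds 6 CCAAT boxes and 2 TTTGAA cores, Mki67 3 and 2, and Ccnb2 3 and 1. Cenpf has 2 CCAAT boxes upstream, and its TTTGAA begins at base 3 after the start. Over full windows, TTTGAA occurred in 26 of 35 member windows (74.3%) against 17.9% of the 32851 windows in the table, and CCAAT in 26 of 35 (74.3%) against 37.4%. At least 2 CCAAT boxes were found in 16 of 35 (45.7%) against 11.7%, and both motifs in 23 of 35 (65.7%) against 6.95%. In member windows no match of one motif overlapped a match of the other. Birc5, Mad2l1, Mybl2, Nuf2, Nusap1 and Pttg1 had neither in their windows. These are matches of letters within a window, not sites of binding.

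At rest the 40 genes were abundant as a group and unequal among themselves. Their summed level was 3115, 1798 and 3706 CPM in untreated B6, 1739.6, 1708 and 2471 CPM after 25HC and 3977, 909 and 3524 CPM in Ch25h-/-. Replicate 2 was the lowest library in each of the 3 resting groups. With PAM3 the sums were 371, 318 and 324 CPM in untreated B6. They were 262, 258 and 268 CPM after 25HC and 402, 279 and 394 CPM in Ch25h-/-, and no PAM3 library overlapped any resting library.

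**Figure D1:**
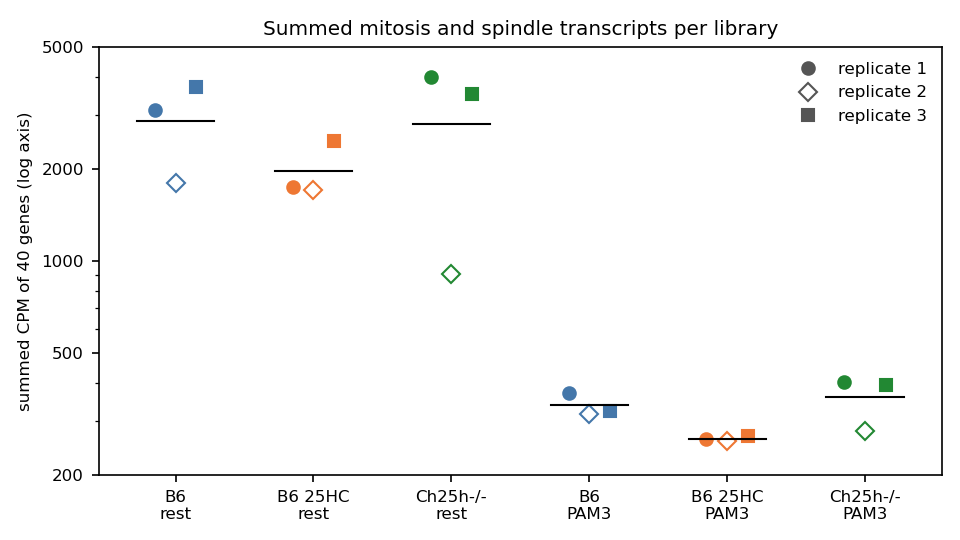
Summed CPM (log axis) of the 40 mitosis and spindle genes in each of 18 libraries; symbols are replicates 1 to 3 (open diamonds replicate 2), colours the B6, 25HC-treated B6 and Ch25h-/- cells, and bars the group means. The 9 PAM3 libraries lie between 257.9 and 402 CPM, below the lowest resting library (Ch25h-/- replicate 2, 909 CPM).

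Per kilobase of annotated exons, in untreated B6 at rest, the most abundant member was Mki67 at 44.00 CPM per kb. It encodes Ki-67, the coat protein of mitotic chromosomes and the usual marker of cycling cells. Top2a, the topoisomerase that untangles sister chromatids, stood at 36.1, Incenp at 30.2, Smc4 at 29.3 and Ccnb2 at 22.95 CPM per kb. The lowest were Mybl2 at 2.75 and Ttk at 3.12 CPM per kb. With PAM3 in untreated B6 the order per length changed, and Incenp (16.2), Smc4 (15.1) and Pttg1 (13.2 CPM per kb) led, with Mki67 at 2.47 and Cenpf lowest at 0.0495. Smc4, Incenp and Pttg1 together made up 10.9% ± 1.44 (SD, n = 3) of the members' summed CPM in untreated B6 at rest, 52.0% ± 2.08 with PAM3, and 59.2% ± 0.492 with 25HC and PAM3. Mki67 and Top2a went the other way, from 26.1% ± 2.72 of the sum to 13.3% ± 3.13 and 11.0% ± 0.513.

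**Figure D2:**
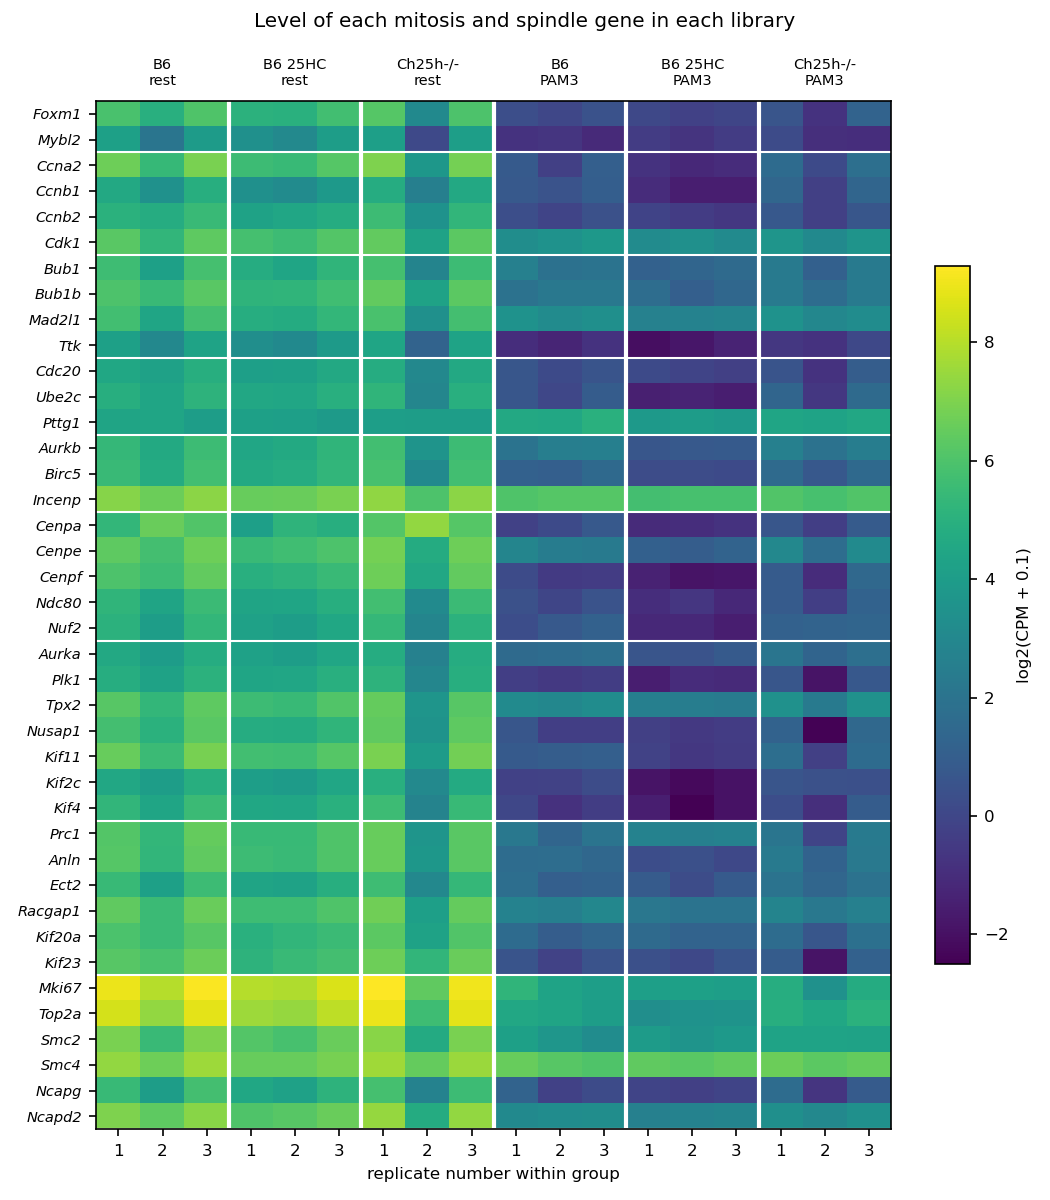
Level of each of the 40 genes (rows, grouped by role) in each of 18 libraries (columns, by group and replicate), coloured by log2(CPM + 0.1). The 9 PAM3 columns at right are dark for most genes, while Incenp, Smc4 and Pttg1 keep much of their colour, and replicate 2 is the darker column within the resting groups, with Cenpa the reverse.

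Replicate 2 at rest stood apart from replicates 1 and 3 in both genotypes. In untreated B6, 38 of 40 members were lower in replicate 2 than in both others, where 44.0% of all tested genes were, and in Ch25h-/- 39 of 40 were, against 43.8% of all. In 25HC-treated B6 the count was 24 of 40 against 44.3%. The median ratio of replicates 1 and 3 to replicate 2 was 1.98-fold in untreated B6, 1.23-fold after 25HC and 5.27-fold in Ch25h-/-. In Ch25h-/-, Mki67 was 626, 85.5 and 524 CPM, Foxm1 71.3, 8.36 and 63.7 CPM and Mybl2 17.4, 0.960 and 16.9 CPM, so that replicate 2 held a small part of the level of its fellows. Cenpa, the histone H3 variant that marks centromeres, ran against the rest and was highest in replicate 2 of all 3 groups: 39.7, 96.1 and 68.7 CPM in untreated B6, 17.8, 36.03 and 29.3 CPM with 25HC and 69.1, 167 and 72.2 CPM in Ch25h-/-. Pttg1 was highest in replicate 2 of untreated B6 only (20.98, 21.8 and 16.7 CPM) and lay at 17.2, 16.5 and 16.7 CPM in Ch25h-/-. All 30 DNA replication genes on a separate list were also lower in replicate 2 in each resting group.

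Markers of other cells also differed between that replicate and the others, but not in the same direction in every group. In Ch25h-/- replicate 2 at rest, the 8 neutrophil markers summed to 91.2 CPM against a mean of 25.7 CPM in replicates 1 and 3, and the 8 fibroblast markers to 14.3 against 3.83 CPM. The sum of the 10 macrophage markers, of which Lyz2 had the highest mean, was also higher there, at 40995 against 30369 CPM. In untreated B6 that sum was 32488 against 25829 CPM, and after 25HC 22622 against 22063 CPM. In untreated B6 the fibroblast sum was 4.50 CPM in replicate 2 and 2.71 CPM in the others, the neutrophil sum 7.29 and 8.25 CPM, and the progenitor sum 2.37 and 5.23 CPM. In Ch25h-/- the erythroid and megakaryocyte sum was 132 CPM in replicate 2 and 268 CPM in the others. Their part in the level of the mitosis genes was not tested. Results that rest on these libraries are given with and without them below.

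**Figure D3:**
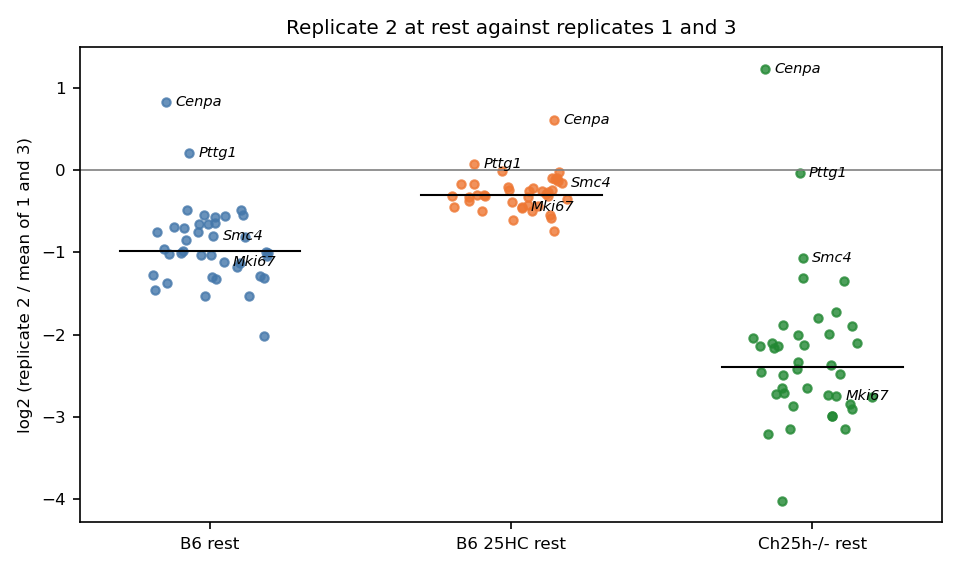
For each of the 40 genes (points), log2 of the replicate 2 level over the mean of replicates 1 and 3 (vertical axis) in the 3 resting groups; bars are medians over genes, and horizontal scatter within a group has no meaning. Most points lie below 0, furthest in Ch25h-/-, while Cenpa lies above 0 in every group.

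Nearly the whole set was lower with PAM3 than at rest. In untreated B6, 39 of 40 members fell (30.8% of all tested genes did) and 1, Pttg1, rose (31.3% of all rose). In 25HC-treated B6, 38 fell (30.4%) and none rose (58.9% of all genes changed either way), and in Ch25h-/- 39 fell (32.1%) and Pttg1 rose (29.9%). A call is an adjusted p below 0.05 in edgeR's quasi-likelihood test. The median log2 fold change over members was -4.20 in untreated B6, an 18.4-fold lower level, -4.62 after 25HC and -3.99 in Ch25h-/-, and the medians of all genes were 0.00, -0.02 and -0.04. Each of these comparisons had 3 libraries a group, and each used its own resting controls. In untreated B6 the summed level of number 1 was 8.40 times higher at rest than with PAM3, that of number 2 was 5.66 times higher and that of number 3 was 11.4 times higher. Without all 6 libraries of replicate 2 the counts were 39 lower and 1 higher in untreated B6, 38 and 0 in 25HC-treated B6, and 39 and 1 in Ch25h-/-.

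Both transcription factors of the programme fell. Foxm1 (chr6:128362967-128376146, GRCm38) had 59.7, 30.8 and 66.6 CPM at rest and 1.17, 0.903 and 1.27 CPM with PAM3 in untreated B6, with no overlap, and a log2 fold change of -5.59 ± 0.67 (SE; adjusted p = 4.83e-06). Its values with 25HC were 33.5, 31.8 and 51.99 CPM at rest and 0.930, 0.763 and 0.879 CPM with PAM3. Mybl2 (chr2:163054687-163084688) went from 18.5, 4.14 and 15.6 CPM to 0.485, 0.519 and 0.366 CPM in untreated B6, log2 fold change -4.75 ± 0.80 (adjusted p = 0.000108). In Ch25h-/- Mybl2 was 17.4, 0.960 and 16.9 CPM at rest and 1.05, 0.436 and 0.418 CPM with PAM3, and its resting replicate 2 lay below its PAM3 replicate 1.

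All 4 genes of the cyclin group fell in untreated, 25HC-treated and Ch25h-/- cells. Ccna2, cyclin A2, which drives S and G2 phase (chr3:36564865-36572150), was at 101, 42.6 and 121 CPM at rest and 1.69, 0.733 and 1.97 CPM with PAM3 in untreated B6. Its log2 fold change was -6.01 ± 0.75 (adjusted p = 7.87e-06), and -7.06 ± 0.82 with 25HC and -5.09 ± 0.73 in Ch25h-/-. Cdk1, the kinase that mitotic cyclins switch on (chr10:69335146-69352938), fell less, from 76.4, 38.7 and 82.1 CPM to 9.60, 11.1 and 13.8 CPM, log2 fold change -2.51 ± 0.42 (adjusted p = 0.000108). The cyclins B were between these: Ccnb1 had a log2 fold change of -3.76 in untreated B6. Ccnb2 (chr9:70407692-70421547) went from 33.00, 27.8 and 44.6 CPM to 1.17, 0.847 and 1.24 CPM there (-5.05 ± 0.44, adjusted p = 2.53e-07). Ccna2 shares 12.5% of its exon bases with Exosc9 on the other strand.

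The 4 spindle checkpoint genes, which delay anaphase until every kinetochore is attached, all fell. Bub1b, encoding the checkpoint protein BUBR1 (chr2:118598211-118641591), was at 62.9, 44.7 and 77.98 CPM at rest and 3.78, 4.57 and 4.53 CPM with PAM3 in untreated B6 (log2 fold change -3.84 ± 0.43, adjusted p = 2.72e-06). Mad2l1, encoding MAD2 (chr6:66535390-66547220), kept more of its level, 52.4, 21.3 and 54.3 CPM at rest and 11.4, 8.89 and 10.2 CPM with PAM3 (-2.07 ± 0.46, adjusted p = 0.00112). The checkpoint kinases Bub1 and Ttk had log2 fold changes of -3.17 and -5.31.

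Among genes of anaphase, Ube2c and Cdc20 fell, while Pttg1 rose in untreated B6 and in Ch25h-/-. Ube2c, the ubiquitin-conjugating enzyme of the anaphase-promoting complex (chr2:164769898-164778822), fell from 29.4, 21.5 and 34.2 CPM to 1.48, 0.903 and 1.80 CPM in untreated B6, log2 fold change -4.39 ± 0.54 (adjusted p = 6.84e-06). Its activator Cdc20 had a log2 fold change of -4.26. Ube2c shares 22.8% of its exon bases with Tnnc2 on the other strand, whose mean was 0.0184 CPM. Pttg1, securin, the separase inhibitor that the complex destroys (chr11:43420250-43426251), was at 20.98, 21.8 and 16.7 CPM at rest and 24.1, 23.7 and 31.6 CPM with PAM3 in untreated B6. The 2 groups did not overlap, and the rise was 0.42 ± 0.13 on the log2 scale (adjusted p = 0.0106). In Ch25h-/- it was at 17.2, 16.5 and 16.7 and 21.7, 20.3 and 23.3 CPM (0.37 ± 0.13, adjusted p = 0.0228). With 25HC it was at 18.01, 17.5 and 15.2 CPM at rest and 14.6, 16.2 and 14.3 CPM with PAM3, log2 fold change -0.17 ± 0.13 (adjusted p = 0.282). The rise in untreated B6 lost its call without PAM3 replicate 3 (adjusted p = 0.0684), without resting replicate 3 (0.0608) and with only the groups compared in the fit (0.0862). In Ch25h-/- it lost its call without any 1 of 4 libraries (resting replicates 2 and 3, PAM3 replicates 1 and 3), with adjusted p up to 0.0973, and without all 3 resting libraries of replicate 2 (0.0519, edgeR).

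The chromosomal passenger complex, which corrects wrong attachments and then marks the midzone, fell unevenly. Incenp, its scaffold (chr19:9872296-9899551), went from 144, 100.1 and 149 CPM to 64.99, 72.3 and 72.8 CPM in untreated B6, log2 fold change -0.90 ± 0.25 (adjusted p = 0.00539). Birc5, survivin (chr11:117849251-117855743), went from 44.99, 27.1 and 52.96 CPM to 2.12, 2.01 and 2.76 CPM (-4.19 ± 0.53, adjusted p = 7.71e-06). Aurkb, the kinase of the complex, had a log2 fold change of -2.88. With PAM3, Incenp thus kept 53.5% of its resting mean in untreated B6, 55.5% with 25HC and 51.8% in Ch25h-/-.

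The 5 centromere and kinetochore genes included the strongest fall in untreated B6, that of Cenpf, a kinetochore protein of G2 and M phase (chr1:189640606-189688086). Cenpf went from 63.6, 47.2 and 88.99 CPM to 1.05, 0.598 and 0.647 CPM, log2 fold change -6.49 ± 0.60, or 90.04-fold (adjusted p = 4.06e-07). Cenpa (chr5:30666777-30674830) went from 39.7, 96.1 and 68.7 CPM to 0.766, 1.01 and 1.63 CPM (-5.93 ± 0.48, adjusted p = 1.15e-07), and Cenpe, the kinetochore motor (chr3:135212537-135273611), from 82.9, 54.9 and 103 CPM to 7.07, 5.38 and 4.89 CPM (-3.80 ± 0.46, adjusted p = 5.52e-06). Ndc80 and Nuf2, partners in the complex that grips microtubules, had log2 fold changes of -4.95 and -4.19. Nuf2, whose upstream bases above hold neither motif, fell 18.2-fold. Of the other members with neither motif in their windows, Birc5, Mad2l1, Mybl2 and Nusap1 fell and Pttg1 rose in untreated B6. The part of these motifs in the changes was not tested.

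All 7 spindle kinases, assembly factors and motors fell in all 3 kinds of cells. Kif11, the motor that pushes spindle poles apart (chr19:37376403-37421859), was at 94.9, 46.7 and 116 CPM at rest and 1.69, 1.87 and 1.97 CPM with PAM3 in untreated B6 (-5.54 ± 0.66, adjusted p = 4.42e-06). Tpx2, which activates Aurora A on the spindle (chr2:152847964-152895321), was at 75.1, 39.4 and 83.3 and 8.63, 7.58 and 9.23 CPM (-2.96 ± 0.52, adjusted p = 0.000166). Kif2c, the microtubule depolymerase MCAK (chr4:117159639-117182639), was at 23.4, 16.8 and 29.2 and 0.766, 0.775 and 1.10 CPM (-4.74 ± 0.40, adjusted p = 1.81e-07). The kinases Plk1 and Aurka had log2 fold changes of -5.40 and -2.87, the microtubule bundler Nusap1 -5.89 and the chromokinesin Kif4 -5.76.

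All 6 midzone and cytokinesis genes fell in untreated B6, with log2 fold changes from -3.52 to -6.12. Kif23 (chr9:61915905-61946774) and Racgap1 (chr15:99620496-99651656), the motor and the GTPase regulator that together form centralspindlin, differed in size. Kif23 went from 75.6, 59.5 and 98.1 CPM to 1.38, 0.783 and 1.35 CPM (-6.12 ± 0.53, adjusted p = 2.25e-07). Racgap1 went from 83.9, 46.4 and 97.5 CPM to 6.41, 5.90 and 7.57 CPM (-3.52 ± 0.47, adjusted p = 1.38e-05). Prc1, Anln, Ect2 and Kif20a had log2 fold changes of -4.21, -4.46, -3.89 and -4.66. Kif20a shares 29.3% of its exon bases with Cdc23 on the other strand. No source used here gives the strand setting of the counting, so its level is uncertain.

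The 6 chromosome structure genes all fell in untreated B6, with log2 fold changes from -4.87 to -0.96. Mki67 (chr7:135689784-135716361) went from 489, 248 and 591 CPM at rest to 37.3, 20.3 and 17.05 CPM with PAM3 in untreated B6 (-4.15 ± 0.61, adjusted p = 3.45e-05), and Top2a (chr11:98992943-99024189) from 370.0, 166 and 442 to 23.95, 20.9 and 16.3 CPM (-3.996 ± 0.60, adjusted p = 4.27e-05). The groups of each gene stood far apart. Within condensin, the ring that compacts chromosomes, the ATPase subunit Smc4 (chr3:69004738-69034623) was at 164, 102 and 191 CPM at rest and 94.9, 74.3 and 66.2 CPM with PAM3 in untreated B6 (-0.96 ± 0.25, adjusted p = 0.0042). With 25HC, Smc4 was at 94.6, 94.7 and 116 and 84.8, 78.3 and 87.1 CPM (-0.29 ± 0.25, adjusted p = 0.343). With only the groups compared in the fit that adjusted p was 0.0388. Its partners Smc2, Ncapd2 and Ncapg had log2 fold changes of -2.85, -3.71 and -4.87 in untreated B6. Ncapg shares 13.4% of its exon bases with Lcorl on the other strand, whose mean was 40.9 CPM. In Ch25h-/- the falls of Smc4 and Incenp lost their call with only the groups compared (adjusted p = 0.0569 and 0.0520, edgeR), and that of Smc4 also without resting replicate 1 or 3.

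With PAM3 the median member kept 5.48% of its resting mean CPM in untreated B6, 4.07% after 25HC and 6.35% in Ch25h-/-. Members at 20% or more were Mad2l1, Incenp, Smc4 and Pttg1 in all 3, with Smc2 added in Ch25h-/-. Among markers, the summed level of the 8 progenitor genes fell alongside. It was 2.37 to 6.09 CPM at rest and 0.281 to 0.478 CPM with PAM3 in untreated B6. With 25HC it was 2.43 to 7.20 and 0.370 to 0.421 CPM, and in Ch25h-/- 2.43 to 4.71 and 0.186 to 0.828 CPM. Of 2 progenitor genes tested, 2 were called lower in untreated B6 and 2 in Ch25h-/-. With 25HC 1 was called lower, and the other had a log2 fold change of 0.35. Only Cd34 among the 8 passed 1 CPM, so defining progenitor genes such as Kit, Mpo and Elane were near 0 in every group. The 8 fibroblast markers were higher with PAM3 in untreated B6, at 2.66 to 4.50 CPM at rest and 8.24 to 10.4 CPM with PAM3, and in 25HC-treated B6, at 1.38 to 2.85 and 6.73 to 7.20 CPM. In Ch25h-/- their ranges overlapped, at 3.75 to 14.3 and 5.48 to 12.7 CPM. The 10 macrophage markers summed to 28049 ± 3867 CPM at rest and 53383 ± 6923 CPM with PAM3 in untreated B6 (SD, n = 3). Of these 10, 6 were called higher and 4 lower. Neutrophil markers in 25HC-treated B6 summed to 3.59 ± 0.515 and 36.3 ± 17.8 CPM (SD, n = 3). Of 6 neutrophil markers tested there, 3 were called higher and 3 lower. Their part in the result was not tested.

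**Figure D4:**
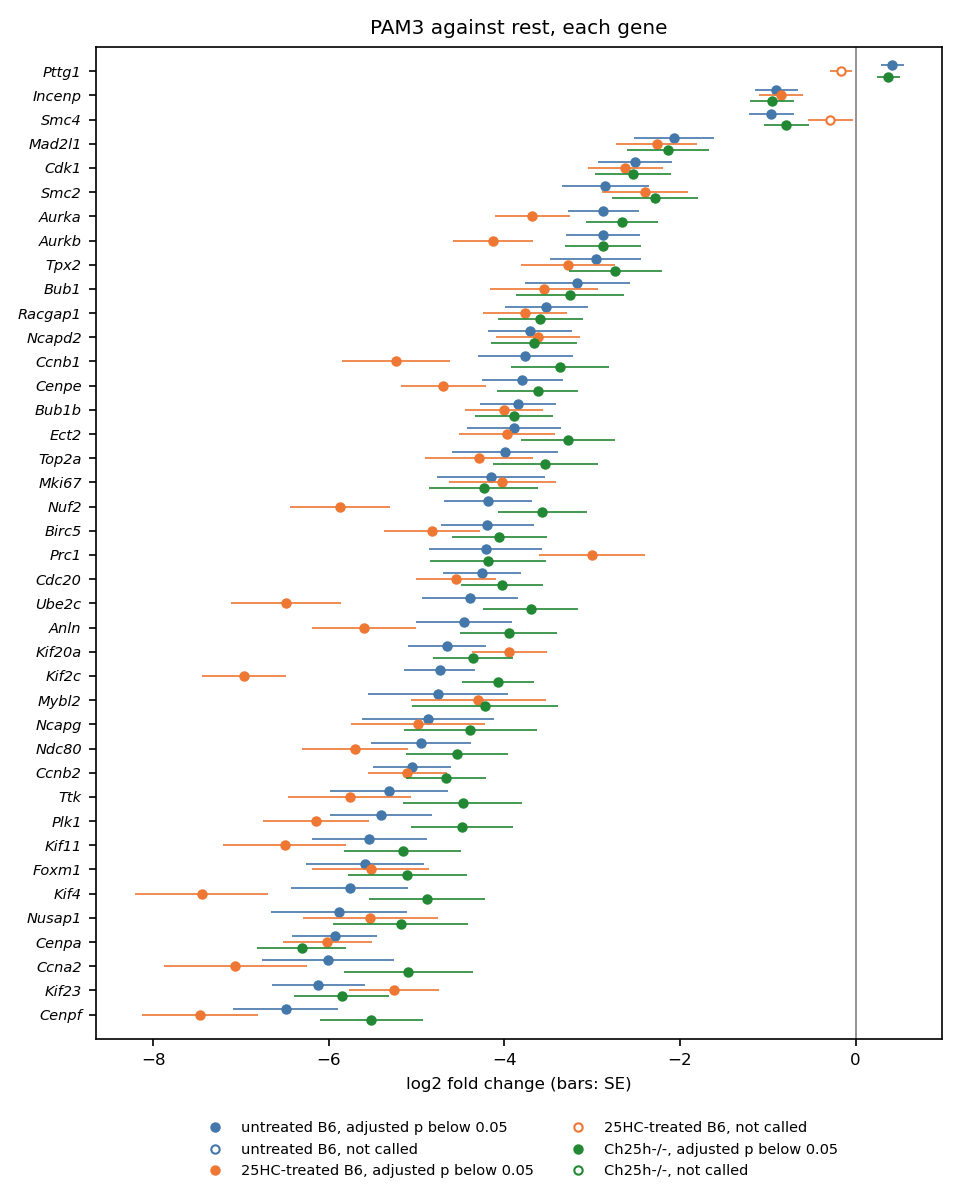
Log2 fold change with PAM3 against rest for each of the 40 genes (rows, ordered by untreated B6), with SE bars, in untreated B6 (blue), 25HC-treated B6 (orange) and Ch25h-/- cells (green); filled points have an adjusted p below 0.05. Points run from 0.42 for Pttg1 to -6.49 for Cenpf in untreated B6, and 2 orange points, Pttg1 and Smc4, are open.

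Whether 25HC changes these genes in the presence of PAM3 was asked by setting B6 cells with both agents against B6 cells with PAM3 alone. The libraries with PAM3 alone also enter the comparison with rest above. Here 12 of 40 members were lower and none higher, where 23.6% of all tested genes were lower. Over both directions 45.1% of all genes were called. The members' share of lower calls, 30%, was near that background, and the median log2 fold change was -0.78 (all genes -0.04). Summed CPM was 1.41, 1.23 and 1.21 times higher without 25HC in numbers 1, 2 and 3, and 38, 36 and 34 of 40 members were lower with 25HC in those pairs (49.9%, 50.8% and 53.8% of all genes). In both groups the summed level lay below that of every resting library. Marker sums of other cells differed between the same groups: the 8 neutrophil markers were at 9.06 ± 1.79 CPM with PAM3 alone and 36.3 ± 17.8 CPM with 25HC as well (SD, n = 3), and the 5 erythroid and megakaryocyte markers, nearly all Pf4, at 133 ± 48.2 and 421 ± 52.8 CPM. Of 6 neutrophil markers tested, 1 was called higher and 2 lower, with a median log2 fold change of -1.66. The 10 macrophage markers were at 53383 ± 6923 and 34140.4 ± 3736 CPM, with 1 called higher and 6 lower. Their part in the result was not tested.

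The 12 genes came from 6 of the 9 roles. Kif2c had 30, 109 and 39 counts (0.766, 0.775 and 1.10 CPM) with PAM3 alone and 10, 15 and 7 counts (0.176, 0.114 and 0.162 CPM) with 25HC as well. The groups did not overlap, and the log2 fold change was -2.58 ± 0.48 (SE; adjusted p = 0.000529). Nuf2 was at 1.10, 1.65 and 2.14 CPM and 0.351, 0.358 and 0.254 CPM (-2.29 ± 0.55, adjusted p = 0.00315). Ube2c was at 1.48, 0.903 and 1.80 CPM and 0.263, 0.297 and 0.254 CPM (-2.27 ± 0.60, adjusted p = 0.00633). All libraries of both genes were lower with 25HC than any without it.

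Pttg1 had the smallest adjusted p of the set, at 24.1, 23.7 and 31.6 CPM with PAM3 alone and 14.6, 16.2 and 14.3 CPM with 25HC as well (-0.81 ± 0.13, adjusted p = 0.000133). Its change was small beside that of Kif2c. The groups of Pttg1 did not overlap, and PAM3 replicate 3 stood above the other libraries at 31.6 CPM. Cenpe went from 7.07, 5.38 and 4.89 CPM to 2.04, 1.86 and 2.31 CPM (-1.49 ± 0.45, adjusted p = 0.0133), and Cenpa from 0.766, 1.01 and 1.63 CPM to 0.386, 0.419 and 0.486 CPM (-1.38 ± 0.50, adjusted p = 0.0364). The B-type cyclin Ccnb1 went from 1.63 ± 0.288 to 0.303 ± 0.0870 CPM (mean ± SD, n = 3; log2 fold change -2.42 ± 0.60, adjusted p = 0.00412). The kinase Aurkb went from 5.16 ± 1.09 to 1.61 ± 0.115 CPM (-1.69 ± 0.43, adjusted p = 0.00466).

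The other calls were weaker. Kif4 (-2.15), Cenpf (-1.84), Anln (-1.45), which encodes the contractile ring protein anillin, and Aurka (-1.07) had adjusted p between 0.0389 and 0.0408. Kif4 shares 15.1% of its exon bases with Pdzd11 on the other strand, whose mean was 30.5 CPM. With the strand setting not given, the level of Kif4 is uncertain. Cenpa, Anln, Kif4, Aurka and Cenpf each lost their call without the filter on low counts and without most single libraries, with adjusted p up to 0.167 (edgeR). Neither transcription factor was called: Foxm1 was at 1.17, 0.903 and 1.27 and 0.930, 0.763 and 0.879 CPM (log2 fold change -0.36 ± 0.65, adjusted p = 0.685). Mki67, at 37.3, 20.3 and 17.05 and 17.8, 18.4 and 17.4 CPM, was not called either (-0.48 ± 0.55, adjusted p = 0.502), and its PAM3 libraries overlapped those with 25HC. Top2a was at 23.95, 20.9 and 16.3 and 9.83, 11.3 and 11.6 CPM, without overlap, and did not pass (-0.90 ± 0.55, adjusted p = 0.191).

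A member on the other side of 0 was Prc1, the protein that bundles midzone microtubules, singled out after its values were seen. It was at 4.52, 2.41 and 4.02 CPM with PAM3 alone and 6.41, 6.11 and 6.52 CPM with 25HC as well (0.82 ± 0.59, adjusted p = 0.27). All 3 libraries with 25HC were above all 3 without. With the animal as a block its adjusted p was 0.00433, and it was the member called higher there. Prc1 shares 11.1% of its exon bases with Rccd1 on the other strand.

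The count of members called depended on the model. With the animal as a block, since the labels give the mouse of each library, 21 members were called, 20 of them lower (26.3% of all genes lower). With only the groups compared in the fit, 25 were lower and 1 higher (25.3% of all lower). With all 6 libraries of replicate 2 left out, 24 were lower and 1 higher (28.1% of all lower), and without the filter 7 were lower.

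**Figure D5:**
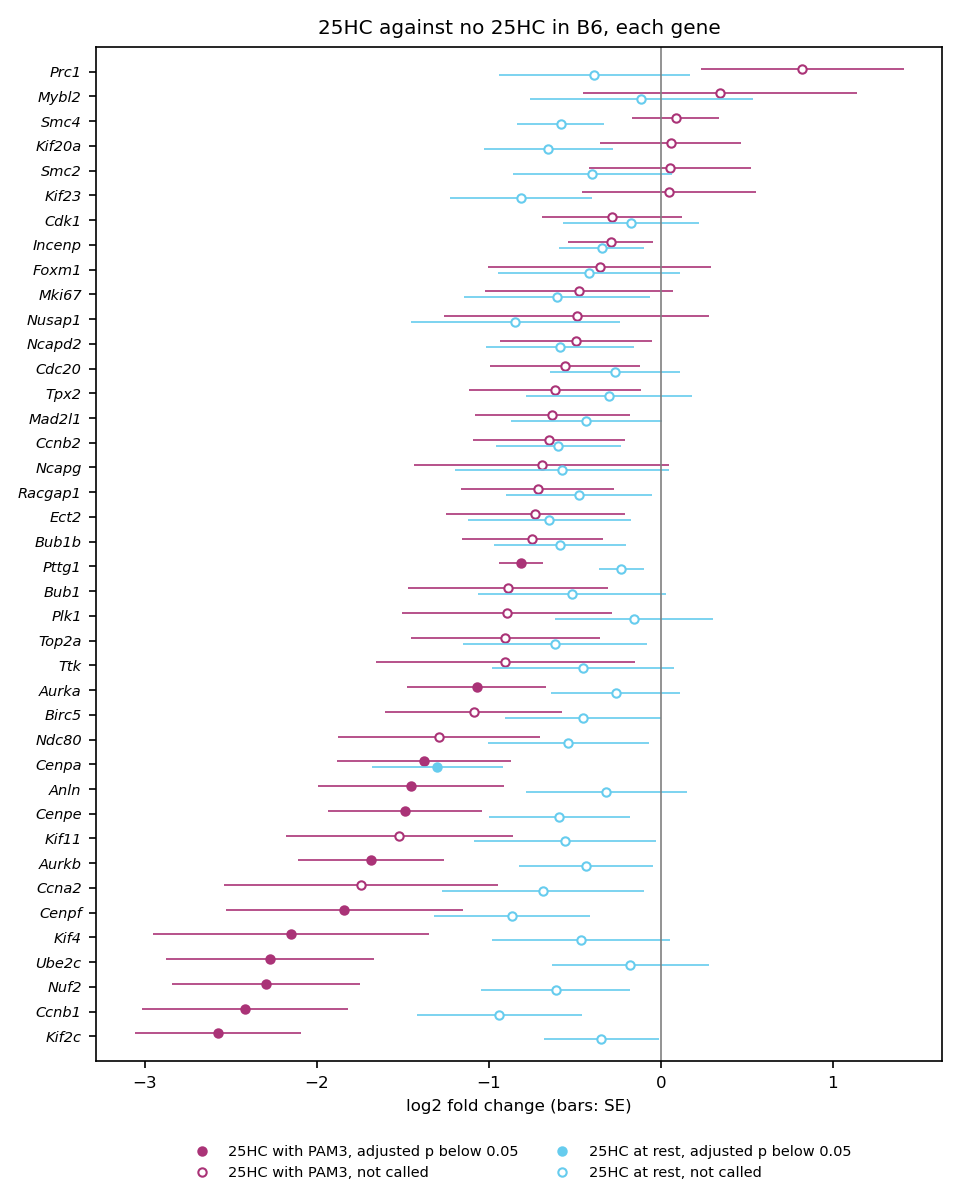
Log2 fold change with 25HC against no 25HC in B6 for each of the 40 genes (rows, ordered by the values with PAM3), with SE bars, with PAM3 (purple) and at rest (light blue); filled points have an adjusted p below 0.05. With PAM3 12 points are filled, from Kif2c at -2.58 to Pttg1 at -0.81, and at rest 1, Cenpa at -1.30.

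At rest 25HC gave a lower level in every fitted value. In the main fit, which leaves out the pairing by mouse, it gave few calls. All 40 log2 fold changes were below 0, with a median of -0.50 (all genes -0.01), and 1 member, Cenpa, fell, where 11.4% of all genes did. Cenpa was at 39.7, 96.1 and 68.7 CPM without and 17.8, 36.03 and 29.3 CPM with 25HC, with all 3 treated libraries below all 3 untreated ones (-1.30 ± 0.38, adjusted p = 0.0217). That call was lost without untreated replicate 2 (adjusted p = 0.0976) or 3 (0.0540), without treated replicate 3 (0.0678) or 1 (0.1104), and with only the groups compared in the fit (0.0530). Next by adjusted p were Smc4, at 164, 102 and 191 and 94.6, 94.7 and 116 CPM (-0.58 ± 0.25, adjusted p = 0.102), and Kif23, at 75.6, 59.5 and 98.1 and 35.2, 44.2 and 53.5 CPM (-0.81 ± 0.41, adjusted p = 0.157). For both genes the untreated replicate 2 was the lowest of its group.

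The animals did not behave alike. The summed level with 25HC was 0.558 times that without in number 1 and 0.667 times in number 3, and 40 and 39 of 40 members were lower with 25HC in those animals (49.8% and 50.3% of all genes). In number 2 the sums were 1798 CPM without and 1708 CPM with 25HC, and 17 of 40 members were lower (49.4% of all). Mki67 shows the pattern, at 489, 248 and 591 CPM without and 248, 234 and 389.8 CPM with 25HC (-0.61 ± 0.54, adjusted p = 0.429), as does Top2a, at 370.0, 166 and 442 and 189, 172 and 278 CPM (-0.61 ± 0.53, adjusted p = 0.419). Number 2 was low already without 25HC.

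With only the groups compared in the fit, Kif23 was the member called lower (adjusted p = 0.0466, edgeR; 8.29% of all genes lower). With the animal as a block 9 members were lower with 25HC at rest (15.3% of all genes). Without the 3 resting libraries of replicate 2 the count was 15 (15.3% of all), and without all 6 libraries of replicate 2 it was 29 (18.9% of all). In the latter fit Ccnb1 had a log2 fold change of -1.12 (adjusted p = 0.000582), Smc4 -0.76 (0.00405) and Top2a -0.80 (0.00964, edgeR). With every library in the fit, Ccnb1 was at 24.5, 10.9 and 29.97 CPM without and 10.7, 8.91 and 14.4 CPM with 25HC (-0.94 ± 0.48, adjusted p = 0.16). Leaving out any 1 library left 0 or 1 member called, and 0 without untreated replicate 3 or treated replicate 1 or 3.

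The interaction of 25HC with PAM3, the difference between the effects of 25HC with PAM3 and at rest on the log2 scale, was below 0 for 3 members and above 0 for none by its test (15.8% of all genes were below, and 28.3% were called either way). These were Kif2c (-2.23 ± 0.59, adjusted p = 0.0129), Pttg1 (-0.58 ± 0.18, adjusted p = 0.0274) and Ube2c (-2.10 ± 0.76, adjusted p = 0.04998). At rest Kif2c was at 23.4, 16.8 and 29.2 CPM without and 16.9, 15.7 and 21.8 CPM with 25HC, and Ube2c at 29.4, 21.5 and 34.2 and 23.3, 21.8 and 30.1 CPM, with overlap between the groups of each gene. The median interaction over the 40 members was -0.29 (all genes -0.08). With the animal as a block 9 members were below 0 and 1 above (19.9% of all below), and without any 1 library 1 to 3 were called.

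Loss of Ch25h changed no member by the test. At rest none of 40 was called (0.00785% of all genes, either way), none had an unadjusted p below 0.05, and the DESeq2 Wald test also called none. With PAM3 none was called (0.173% of all, 0.0471% higher), 1 had an unadjusted p below 0.05, and DESeq2 called none. For the interaction of genotype with PAM3 none was called (0% of all), none had an unadjusted p below 0.05 and DESeq2 called none. Among all 12741 tested genes, 704 had an unadjusted p below 0.05 at rest, 1784 with PAM3 and 598 for this interaction (edgeR). Median log2 fold changes were -0.08 at rest and 0.25 with PAM3. The spread among Ch25h-/- libraries was wide, with a summed level at rest of 2804 ± 1656 CPM against 2873 ± 977 CPM in B6 (SD, n = 3). Without the 3 resting or all 6 libraries of replicate 2, no member was called in any of these 3 comparisons where that could be fitted.

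Libraries of the same mouse number deviated together across genotypes at rest, with r = 0.574, 0.705 and 0.327 over all genes for numbers 1, 2 and 3, although the animals differ. With the number as a block, no member was called between genotypes at rest or with PAM3. The members' summed level at rest was 1.28 times higher in Ch25h-/- for number 1, 1.98 times higher in B6 for number 2 and 1.05 times higher in B6 for number 3. With PAM3, the smallest adjusted p was that of Pttg1, at 24.1, 23.7 and 31.6 CPM in B6 and 21.7, 20.3 and 23.3 CPM in Ch25h-/- (-0.28 ± 0.13, adjusted p = 0.344). Cenpf was at 1.05, 0.598 and 0.647 and 1.72, 0.392 and 2.65 CPM (1.09 ± 0.62, adjusted p = 0.439). Ch25h-/- replicate 2 was the lowest of its group for Cenpf, and its summed level of members, 279 CPM, was also the lowest of its group.

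Another 70 genes of mitosis, listed apart from the members, gave a like picture with PAM3. In untreated B6, 62 fell and 1 rose (30.8% and 31.3% of all genes). In 25HC-treated B6 61 fell and 2 rose (30.4% and 28.5%), and in Ch25h-/- 62 fell and 1 rose (32.1% and 29.9%). The medians were -3.54, -3.60 and -3.34. Aspm, a spindle pole protein, went from 47.2, 38.6 and 73.00 CPM to 0.741, 0.569 and 0.478 CPM in untreated B6 (-6.47 ± 0.58, adjusted p = 3.04e-07), and Cdc25b, the phosphatase that activates CDK1, had a log2 fold change of -3.34 ± 0.24 (adjusted p = 4.56e-08). With 25HC and PAM3 against PAM3, 20 of the 70 were lower and 2 higher, where 23.6% of all genes were lower and 21.5% higher, so the lower count was near that background. They included Troap (-2.28, adjusted p = 0.00313) and Gtse1 (-1.39, adjusted p = 0.00134). With 25HC at rest, 2 were lower, the centromere gene Cenpu (-1.07, adjusted p = 0.00825) and the condensin II gene Ncapg2 (-0.84, adjusted p = 0.00834), and 1 was higher, the kinetochore gene Zwint (0.40, adjusted p = 0.0462), against 11.4% and 14.8% of all genes. None of the 70 was called between genotypes.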

How the data were processed

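The values are raw read counts per gene, deposited by the authors as 1 table of 30530 genes by 18 libraries. Per the submitters' processing notes, the tools used were FastQC 0.11.9, GSNAP, featureCounts of Subread 1.5.2 and edgeR 3.26.8, with the mouse build GRCm38 (mm10). For the strand setting, the handling of multiply aligned reads and the release of the annotation: not given in the sources used here. Exon bases of 12 members overlap those of another gene, 9 of them on the opposite strand.

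Genes were kept by filterByExpr (minimum count 10), scaled with TMM factors and fitted in edgeR 4.0.16 (R 4.3.3, limma 3.58.1) with 1 mean per group over all 18 libraries. Each of 9 comparisons used the two-sided robust quasi-likelihood test; p-values were adjusted by Benjamini-Hochberg over 12741 genes and a call was an adjusted p below 0.05. Residual degrees of freedom were 12 and the biological coefficient of variation 0.192. Standard errors are the absolute log2 fold change over the square root of F, and CPM were taken over TMM-scaled totals. Exon lengths and loci came from GENCODE M21. DESeq2 1.42.0 was an alternative. Tables and figures used Python 3.11.15, pandas 2.3.3, numpy 2.4.6 and matplotlib 3.10.9. The model was tested on simulated data.

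The members, lists, markers and alternatives were chosen with earlier results of these data known. All 40 members could be named. Values in every library were given for the 2 members of highest mean CPM in each role and up to 3 of smallest adjusted p in each comparison, and those of Ccnb1, Cenpf and Prc1, and of genes that others are set beside, were added after they were seen. From other lists, at most 4 genes of smallest adjusted p were named per comparison. Marker lists covered macrophages, fibroblasts, progenitors, neutrophils, lymphoid cells, erythroid cells and megakaryocytes, and mast and dendritic cells.

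Whether the mouse number pairs libraries was read from the correlation, over genes, of their departures from group means. Between untreated and 25HC-treated B6 it gave r = 0.448, 0.581 and 0.348 at rest and 0.406, 0.377 and -0.162 with PAM3. Over the members alone these were 0.652, 0.920 and 0.830 at rest and 0.187, 0.197 and -0.164 with PAM3. Within a genotype the labels name the mouse, which served as the block. Across genotypes it gave r = 0.574, 0.705 and 0.327 at rest, every pair over 0.1, and 0.322, 0.459 and 0.0949 with PAM3. These are different animals, and the labels do not say what a shared number stands for. Nothing else in the labels says how cultures were set up. Alternatives were another scaling, another test, other filters, fewer groups, the block, and libraries left out 1, 3 or 6 at a time.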

Additional observations from a re-analysis of the deposited data

Results flagged for a closer look

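The effect of 25HC differed between B6 cells at rest and B6 cells with PAM3, by the test of the interaction, for 3 of the 40 members. All 3 were below 0. That is 7.5% of members, where 15.8% of all tested genes were below 0 and 28.3% were called either way. The members' share was thus lower than that of all genes. Kif2c had an interaction of -2.23 ± 0.59 on the log2 scale (edgeR, adjusted p = 0.0129), and its log2 fold change with 25HC was -0.35 at rest and -2.58 with PAM3. Ube2c had an interaction of -2.10 ± 0.76 (adjusted p = 0.04998), from -0.18 at rest to -2.27 with PAM3. Pttg1 had an interaction of -0.58 ± 0.18 (adjusted p = 0.0274), from -0.23 at rest to -0.81 with PAM3. Counts behind the PAM3 values of Kif2c were 30, 109 and 39 without and 10, 15 and 7 with 25HC, and those of Ube2c 58, 127 and 64 and 15, 39 and 11. The call of Ube2c was lost with DESeq2 size factors (0.0523) and without most single libraries, and that of Pttg1 without any 1 of 5 libraries, with only the groups compared (0.0546) and without a filter on low counts (0.0741).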

How the results depend on the processing

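The count of members called with PAM3 stayed between 38 and 40 in each kind of cell under every alternative run, and the counts between genotypes and for the interaction of genotype with PAM3 stayed at 0, with the mouse number as a replicate block too. Among members called with 25HC at rest, the main count of 1 became 9 with the animal as a replicate block, 15 without the 3 resting libraries of replicate 2 and 29 without all 6 libraries of replicate 2, and 0 to 1 without any 1 library (0 without untreated replicate 3 or treated replicate 1 or 3). With 25HC and PAM3, the main count of 12 became 7 without a filter, 26 with only the groups compared, 21 with the replicate block and 25 without all 6 libraries of replicate 2, and 7 to 8 without any 1 library (7 without PAM3 replicate 3 or without replicate 2 or 3 of the group with both agents). For the interaction of 25HC with PAM3, 3 became 1 without a filter, 9 with only the groups compared, 10 with the replicate block, 8 without the 3 resting libraries of replicate 2 and 12 without all 6 of replicate 2, and 1 to 3 without any 1 library (1 without replicate 3 of untreated rest, 1 of 25HC at rest, 3 of PAM3, or 1 or 3 of both agents). Shares of all genes called lower moved too. At rest they were 11.4% in the main fit, 15.3% with the block, 15.3% without the 3 libraries and 18.9% without the 6. With 25HC and PAM3 they were 23.6%, and 25.3% with only the groups compared, 26.3% with the block and 28.1% without the 6. Interaction shares were 15.8%, and 15.9% with only the groups compared, 19.9% with the block, 21.5% without the 3 and 23.8% without the 6. The cause of these shifts was not tested. DESeq2's Wald test called 1, 16 and 4 members in these 3 comparisons. Shares of all genes for DESeq2, for the fit without a filter and for single libraries left out are not given here. Of 2071 values of named genes under alternatives, 1980 kept their direction and side of the threshold, 69 lost a call, 22 gained one and 0 reversed. Depth limits the lowest members, such as Kif4 with 14, 10 and 7 counts with 25HC and PAM3.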

Other observations

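Of a list of 30 genes of DNA replication and nucleotide supply, 26 fell with PAM3 in untreated B6 (30.8% of all genes did). In 25HC-treated B6 28 fell (30.4% of all), and in Ch25h-/- 24 fell (32.1% of all). None was called higher, where 31.3%, 28.5% and 29.9% of all genes were. The medians were -2.30, -3.21 and -2.07. Tk1, the thymidine kinase of S phase, went from 50.6, 19.1 and 50.6 CPM at rest to 1.66, 1.49 and 1.91 CPM with PAM3 in untreated B6 (-4.58 ± 0.72, SE; edgeR, adjusted p = 5.89e-05). With 25HC and PAM3 against PAM3, 6 of 30 were lower, a count at the background of 23.6% of all genes, and the smallest adjusted p was that of Mcm10, a replication initiation factor (-2.39 ± 0.63, adjusted p = 0.00593). At rest 25HC changed none of the 30 by the test (26.2% of all genes were called either way), and the median was -0.01. None was called between genotypes (0.00785% of all genes at rest and 0.173% with PAM3).

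The 21 cell cycle inhibitors, pocket proteins and repressor E2Fs moved in both directions. With PAM3 in untreated B6, 10 fell and 5 rose (30.8% and 31.3% of all genes). Cdkn1c, encoding p57, fell from 2.81, 3.33 and 3.61 CPM to 0.358, 0.313 and 0.253 CPM (-3.38 ± 0.24, adjusted p = 3.3e-08), and Cdkn1a, encoding p21, rose (1.19 ± 0.15, adjusted p = 8.4e-06). With 25HC at rest, 4 rose and 3 fell, near the shares of all genes (14.8% and 11.4%). Cdkn1c went from those resting values to 11.5, 10.8 and 14.8 CPM (1.92 ± 0.21, adjusted p = 3.48e-05), and Rb1, the retinoblastoma protein gene, fell (-1.08 ± 0.14, adjusted p = 0.000198). With 25HC and PAM3 against PAM3, 8 rose and 3 fell (21.5% and 23.6% of all genes), led by the antiproliferative gene Btg1, from 155, 81.5 and 132 CPM to 869, 705 and 936 CPM (2.77 ± 0.27, adjusted p = 2.87e-06). The interaction of 25HC with PAM3 was called above 0 for 3 of the 21 and below 0 for 3 (12.5% and 15.8% of all genes). It was above 0 for Btg1 (2.35 ± 0.37, adjusted p = 0.00074), Cdkn1b, encoding p27 (1.37 ± 0.29, adjusted p = 0.00411), and Rb1 (0.81 ± 0.20, adjusted p = 0.00933), and below 0 for E2f4, a repressor E2F (-0.68 ± 0.15, adjusted p = 0.00568), among others.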
